A study of Mus musculus with 8 samples.

Results

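The genes of the cell division cycle and of DNA replication were followed in RNA sequencing data from mouse peritoneal macrophages. They were 52 genes chosen by name for their known roles, and all 52 had a row among the 11996 genes of the deposited table. Macrophages had been drawn into the peritoneum of C57BL/6 mice with thioglycolate, an irritant, and were left on plastic for 24 h. The 4 groups were wild-type cells under mock treatment, wild-type cells with IL-10 at 100 ng/ml for 4 h, and cells of Ptpn1-/- mice under the same pair of conditions. Each group had 2 samples in the labels, and the labels used here give neither the age nor the sex of the mice, nor which part of Ptpn1 was deleted. Ptpn1 encodes PTP1B, a tyrosine phosphatase that acts on JAK kinases and growth factor receptors.

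The table gives 1 normalized signal per gene and group, so each value below is the authors' value for a group, with no SD. No difference could be set against the spread between samples, and no p-value is given. Differences are log2 ratios of signal after 26.7 units (1 ppm of the column total) were added to both sides, which understates the change of low genes. Genes with a mean of at least 26.7 units, 11400 in all, were compared, and 51 of the 52 cell cycle genes were among them. The exception was Cdkn3, with a mean of 26.5 units. All 4 columns have the same total and the same highest value, which 5 to 8 genes share in each, and values of the same rank differed over the columns by a median of 1.81% of their mean. A shift common to all genes would therefore not show in these values.

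A cell that enters division passes through G1, copies its DNA in S phase and separates the copies in mitosis. Cyclin E with Cdk2 releases E2F factors, which switch on the genes of replication. Origins are licensed by Cdc6, Cdt1 and the Mcm helicase, and later the B-type cyclins with Cdk1 drive mitosis, whose genes are switched on by B-Myb, FoxM1 and the MuvB complex. Inhibitors such as Cdkn1a and Cdkn1b hold the kinases in check. Most macrophages elicited by thioglycolate come from blood monocytes and divide little in culture without added growth factor.

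The role groups overlapped widely in signal. Per kilobase of transcript, a scale on which genes can be compared only if the deposited signal was not already divided by length, Pcna, the sliding clamp of the replication fork, stood highest at 4601 units. Cdk4, the kinase of the D-type cyclins, followed at 1902 units per kilobase and Cdkn1a at 1848. Gins1, of the GINS part of the replicative helicase, stood at 753 units per kilobase and the licensing factor Cdt1 at 737. The median of the 11 licensing and helicase genes was 191 units per kilobase, while that of the 5 replication fork genes was 90.1, close to the 86.1 of the mitotic cyclin and Cdk1 genes and the 77.2 of the mitotic kinases and checkpoint. The 10 genes of spindle, kinetochore and chromosomes had a median of 52 units per kilobase, from 11.4 for the kinetochore gene Cenpf to 146 for the spindle assembly factor Tpx2. The checkpoint kinase gene Chek1 was lowest of all 52, at 8.0 units per kilobase. The median cell cycle gene had a mean signal of 250.2 units, and 27.6% of the compared genes lay below it. The range over the 4 columns was narrow: the ratio of a gene's highest to its lowest column had a median of 1.22 and reached 1.68 in Gins1.

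**Figure D1:**
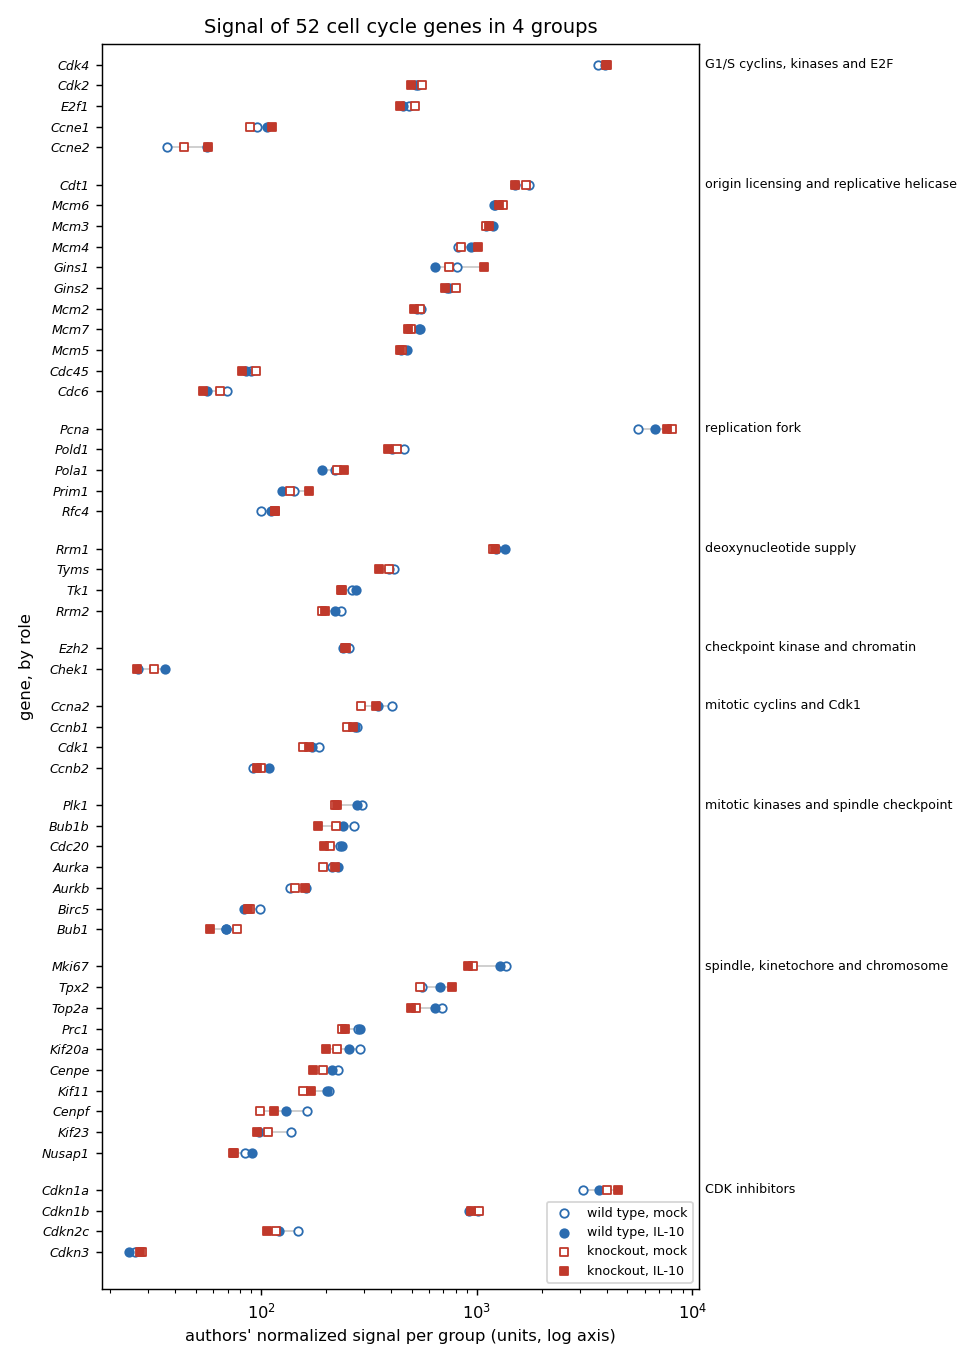
Normalized signal (units, log axis) of the 52 genes, ordered by role and by mean signal, with circles for wild type and squares for knockout, open for mock and filled for IL-10. The 4 symbols of most genes lie close together, while both squares of Mki67 lie left of both its circles and the IL-10 square of Gins1 stands to the right of its other symbols.

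Promoters of these genes hold different short motifs. RefSeq (GRCm38.p6) gave a window of 300 bases, 250 before and 50 after the start of transcription, for 44 of the 52 genes, and the first window was used where a gene had more than 1. The motifs searched on both strands were the CCAAT box bound by NF-Y (CCAAT), forms of the cell cycle homology region bound by MuvB complexes (TTTGAA or also TTCGAA), and E2F forms (TTCCCGC or also TTGGCGC or also TTCGCGC). Of 17 mitotic genes with a window, 15 held a CCAAT box (88.2%) and 13 a homology region form (76.5%), against 37.9% and 19.4% of the windows of 27025 genes. The mitotic genes held an E2F form in 3 of 17 windows (17.6%). Of 21 G1/S and replication genes, 12 held an E2F form (57.1%) and 3 a homology region form (14.3%), and the share of E2F forms among all genes was 8.21%. A CCAAT box was held by 12 of the 21 (57.1%), also more than the 37.9% of all genes. A CCAAT box and an E2F form overlapped in 3 of the 44 windows, and a CCAAT box and a homology region form in 0. A match is a string of letters and not a measured binding site. The 250 bases before the start are printed for the 4 mitotic genes with a window whose mock signal was lowest in knockout cells relative to wild type, and, as replication genes, for Mcm6, with 5 E2F matches, and Pcna. Capitals mark the motifs, and a match in the 50 bases after the start is not shown. These are GRCm38.p6 positions, whereas the deposited table uses mm9.
Cenpf (chr1:189688087-189688336, minus strand): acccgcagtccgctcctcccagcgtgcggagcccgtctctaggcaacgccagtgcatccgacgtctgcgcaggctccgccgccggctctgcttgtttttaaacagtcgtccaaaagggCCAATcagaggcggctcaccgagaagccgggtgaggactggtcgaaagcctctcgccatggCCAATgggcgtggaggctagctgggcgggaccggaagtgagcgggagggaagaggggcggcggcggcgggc
Mki67 (chr7:135716380-135716629, minus strand): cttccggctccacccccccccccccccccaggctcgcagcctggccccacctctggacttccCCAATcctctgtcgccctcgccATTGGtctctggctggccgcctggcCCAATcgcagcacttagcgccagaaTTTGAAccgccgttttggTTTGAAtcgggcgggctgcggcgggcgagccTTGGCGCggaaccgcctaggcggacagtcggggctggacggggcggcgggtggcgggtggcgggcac
Plk1 (chr7:122159185-122159434, plus strand): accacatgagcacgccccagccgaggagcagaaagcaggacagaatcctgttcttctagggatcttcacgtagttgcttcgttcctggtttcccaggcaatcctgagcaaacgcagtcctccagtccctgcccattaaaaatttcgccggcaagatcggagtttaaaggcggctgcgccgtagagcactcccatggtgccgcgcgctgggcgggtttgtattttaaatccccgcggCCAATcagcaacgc
Top2a (chr11:99024190-99024439, minus strand): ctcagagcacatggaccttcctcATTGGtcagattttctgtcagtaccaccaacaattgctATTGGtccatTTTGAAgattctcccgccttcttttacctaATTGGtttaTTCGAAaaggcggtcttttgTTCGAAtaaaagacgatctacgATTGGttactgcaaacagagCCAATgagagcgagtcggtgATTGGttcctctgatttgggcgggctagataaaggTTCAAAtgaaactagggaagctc
Mcm6 (chr1:128359706-128359955, minus strand): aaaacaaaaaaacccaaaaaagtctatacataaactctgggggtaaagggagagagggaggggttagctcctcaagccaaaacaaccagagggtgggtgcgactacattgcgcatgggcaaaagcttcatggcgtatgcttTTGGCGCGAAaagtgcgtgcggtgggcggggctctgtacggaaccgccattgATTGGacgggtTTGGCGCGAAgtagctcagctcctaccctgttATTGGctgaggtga
Pcna (chr2:132253181-132253430, minus strand): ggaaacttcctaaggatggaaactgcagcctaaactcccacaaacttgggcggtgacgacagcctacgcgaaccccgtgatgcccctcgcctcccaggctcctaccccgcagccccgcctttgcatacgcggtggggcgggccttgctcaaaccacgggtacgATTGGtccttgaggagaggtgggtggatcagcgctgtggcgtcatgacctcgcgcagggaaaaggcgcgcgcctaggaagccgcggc
The Top2a stretch holds 6 CCAAT boxes and 4 homology region forms, and that of Mki67 holds 3 and 2. The Mcm6 stretch holds 4 of its E2F matches, which overlap in pairs, 1 on each strand. The Pcna stretch holds 1 CCAAT box and none of the other motifs.

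Before the genotypes are compared, the columns themselves differed. Ptpn1 stood at 4960.5 units in mock-treated wild type and 3836.5 in knockout cells, and at 6736 and 5391.5 with IL-10. Its signal was thus still present in the knockout columns, with knockout to wild-type log2 ratios of -0.37 under mock and -0.32 with IL-10. The 5th percentiles of all genes were -0.38 and -0.34. Which part of the gene was deleted is not given in the sources used here, so the Ptpn1 signal does not check the genotype labels. Knockout means the columns labelled so throughout. Socs3, the STAT3-induced feedback inhibitor, stood at 380.5 units under mock treatment and 3924.5 with IL-10 in wild-type cells and at 432 and 5021 in knockout cells. Across 11222 genes with a transcript length, the knockout to wild-type log2 ratio was lower for longer transcripts, and Spearman's rank correlation with length was -0.56 for the mock columns and -0.42 for the IL-10 columns (across genes, which are not replicates). Of 9 macrophage markers 8 were analysed, and they summed to 652542 and 562123 units in the wild-type columns and 468690 and 472362 in the knockout columns. They went both ways under mock, 4 above 0 and 4 below: Lyz2 had a log2 ratio of -1.41 and Itgam -0.38, Csf1r stood at -0.14 and Emr1 at 0.06, and Fcgr1 at 0.79. Most of the sum was Lyz2 and Cd68, which lie at the top of the table, where values repeat between columns. All 5 monocyte markers were higher in knockout cells, with summed signals of 991 and 1443 units in the wild-type columns and 2249.5 and 2892 in knockout cells. The 9 mesothelial and fibroblast markers summed to 33733.5 and 32346 units in wild-type cells and 20353.5 and 20230.5 in knockout cells, and all 9 were lower under mock. For T cells 3 of 9 markers were analysed, nearly all of their sum of 32953 to 44842.5 units being Il7r, and for B cells 5 of 7, with Blnk, which macrophages also express, the most abundant. Cd3e, Cd3d, Cd3g, Cd4, Cd8a, Trac and all 5 NK cell markers had no row under these names and so no value. No analysed marker was at 0 in all columns. In bulk RNA, fewer cells of a type and less RNA per cell cannot be told apart.

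Mitotic genes stood lower in knockout cells than in wild-type cells, by small amounts, while replication genes showed no common direction. This comparison asks how loss of Ptpn1 went with the state of untreated cells. The mitotic genes were 4 mitotic cyclin and Cdk1 genes, 7 of mitotic kinases and the spindle checkpoint, and 10 of spindle, kinetochore and chromosomes. Under mock treatment 18 of these 21 genes were below 0 (85.7%), with a median log2 ratio of -0.21, whereas 45.8% of all compared genes were below 0 and their median was 0.02. Of the 25 G1/S and replication genes 12 were below 0, with a median of 0.01. Over all 51 genes 32 were below 0 (62.7%), with a median of -0.07. None of the 51 genes was 2-fold higher, as were 0.325% of all genes, or 2-fold lower, as were 0.105% of them. The single gene at least 1.5-fold lower was Cenpf, against 1.4% of all genes, and none was 1.5-fold higher, against 1.43%. Cenpf no longer passed 1.5-fold with a pseudocount of 4 ppm or with the length trend subtracted. Below the 5th percentile of all genes (-0.38), where 5% of them lie, were 4 of the 51 (7.84%), Cenpf, Mki67, Ccna2 and Plk1. All 4 were mitotic, 19% of the 21. Above the 95th percentile (0.37), again 5% of all genes, was Pcna.

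Mki67, the proliferation marker that coats mitotic chromosomes (mm9 chr7:142881471-142908062, minus strand), stood at 1372.5 units in wild-type cells and 963 in knockout cells under mock, and at 1282 and 913 with IL-10. Both knockout columns thus lay below both wild-type columns, with log2 ratios of -0.50 and -0.48. Top2a, the topoisomerase that untangles sister chromatids, showed the same order, at 688.5 and 523.5 units under mock and 641.5 and 498 with IL-10 (log2 ratios -0.38 and -0.35). The row of Top2a covers 4.21% of the length of the GENCODE gene. Plk1, a kinase of mitotic entry and spindle assembly, stood at 294 and 219 units under mock and 279 and 225 with IL-10 (-0.38 and -0.28). These 3 genes had both knockout columns below both wild-type columns, as did the motor genes Kif11 and Kif20a, the kinetochore motor gene Cenpe, and the bundling factors Prc1 and Nusap1. Bub1b, which encodes the checkpoint protein BubR1, stood at 269 and 222.5 units under mock and 240.5 and 183 with IL-10 (-0.25 and -0.35). Cdc20, the activator of the anaphase-promoting complex, stood at 231.5 and 209 units under mock and 238 and 196.5 with IL-10.

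For other mitotic genes the difference lay in the mock columns. Cenpf (mm9 chr1:191507705-191511914, minus strand, 8.87% of the GENCODE gene) stood at 162.5 units in wild-type cells and 99 in knockout cells under mock, a log2 ratio of -0.59, and at 131 and 115 with IL-10, a ratio of -0.15. Ccna2, cyclin A2 of S phase and mitotic entry, stood at 404 and 291 units under mock and 348 and 341.5 with IL-10, so its ratio went from -0.44 to -0.03. Kif23, a motor of cytokinesis, stood at 138 and 108 units under mock and 97.5 and 96 with IL-10. Cdk1, the kinase of mitosis, stood at 185.5 and 157 units under mock and 171.5 and 166 with IL-10, and its partner Ccnb1 at 279 and 251.5 and then 271.5 and 268. The 3 mitotic genes above 0 under mock were the checkpoint kinase gene Bub1 (0.12), Ccnb2 (0.09) and Aurkb (0.07). In all, 14 of the 21 mitotic genes (66.7%) had both knockout columns below both wild-type columns, an order held by 23% of all compared genes, and 0 of 21 had the opposite order, held by 28.6%.

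**Figure D2:**
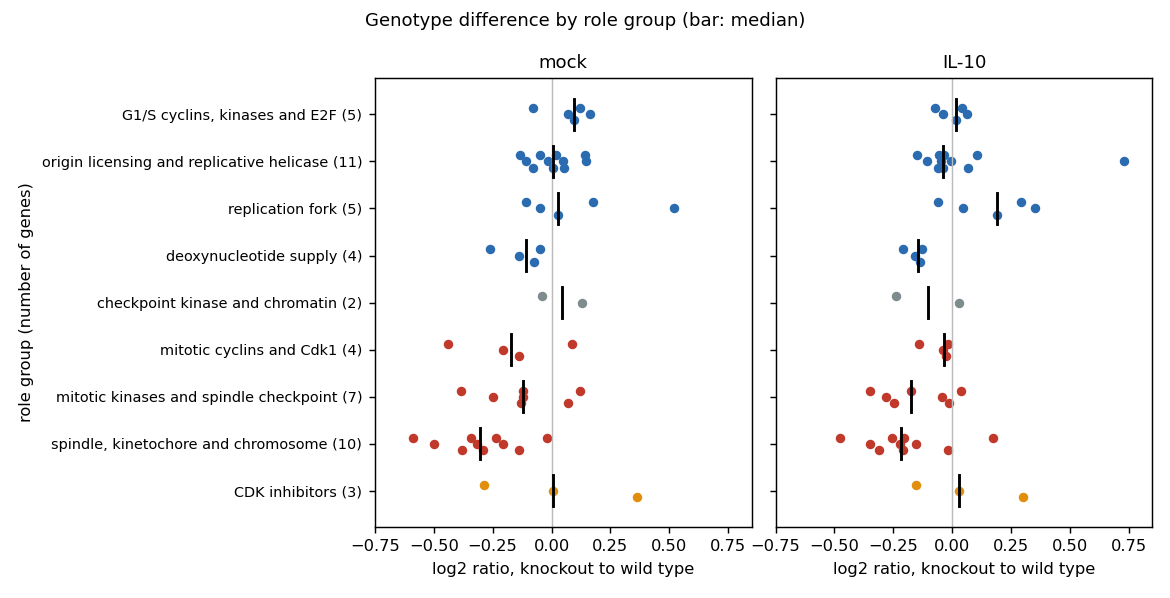
Log2 ratio of knockout to wild-type signal for the 51 compared genes, 1 point per gene, by role group, under mock (left) and with IL-10 (right); the black bar is the group's median. All 10 genes of spindle, kinetochore and chromosomes lie below 0 under mock, while the 11 licensing and helicase genes lie on both sides of it.

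Transcript length moved with this result. Long transcripts had lower knockout to wild-type ratios over the whole table, and Cenpf and Mki67 are among the longest here, at 11130 and 10061 bases. With the running median over length subtracted, the mock ratio was -0.32 for Cenpf and -0.24 for Mki67, and it was -0.49 for Ccna2, at 2965 bases, and -0.47 for Plk1, at 2199 bases. The median of the 21 mitotic genes was then -0.23, with 19 below 0, and with IL-10 it was -0.16, with 17 below 0. Of the 25 G1/S and replication genes 15 were then below 0 under mock and 17 with IL-10, with medians of -0.02 and -0.05. Among them the 4 genes of deoxynucleotide supply were all below 0 in both, with medians of -0.20 and -0.15. Of all 11222 genes with a length, 5614 and 5597 were below 0. The lower mesothelial and fibroblast markers and the higher monocyte markers of knockout cells also moved with the lower mitotic signal. All 4 mast cell markers that passed the filter were higher under mock too. Of 6 resident peritoneal macrophage markers 3 were higher and 3 lower under mock, from -0.82 to 0.88. The part of these cell types in the result was not tested.

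**Figure D3:**
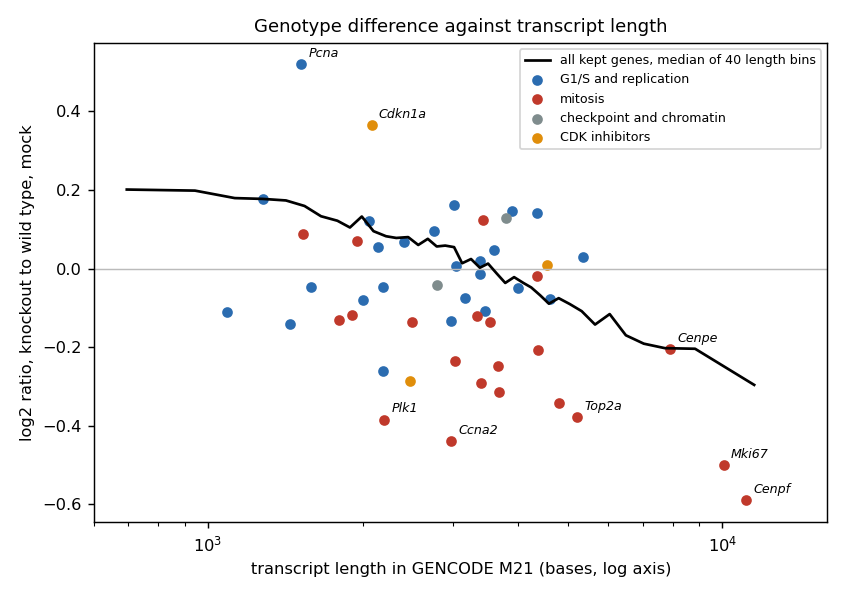
Log2 ratio of knockout to wild-type signal under mock against transcript length (bases, log axis) for the 51 compared genes, coloured by role; the line joins the medians of 40 length bins of all compared genes. The line falls with length, and most mitotic genes (red) lie below it, Cenpe (7910 bases) on it.

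With IL-10 the order of the groups was similar. Of the 21 mitotic genes 19 were below 0 (90.5%, against 47.4% of all compared genes), with a median of -0.18, and 15 of the 25 G1/S and replication genes were below 0, with a median of -0.04. The 2 mitotic genes above 0 were Tpx2 (0.17) and Birc5, the survivin gene (0.04). No gene was 2-fold higher (0.596% of all genes) or 2-fold lower (0.0789%), none was 1.5-fold lower (0.991%), and Gins1 was the single gene 1.5-fold higher (1.8%). Below the 5th percentile of all genes (-0.34) were Mki67, Bub1b and Top2a, 5.88% of the 51 against 5% of all genes. Prim1 and Gins1 lay above the 95th percentile (0.34), 3.92% against 5%. Of the genes below the 5th percentile under mock, only Mki67 was below it again. The mock and IL-10 ratios, which share no column, correlated over the 52 genes with r = 0.49 (Pearson) and rho = 0.54 (Spearman), given as a description, against r = 0.73 and rho = 0.68 over all compared genes. The labels do not say whether mock-treated and IL-10-treated cells were taken from the same animals.

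**Figure D4:**
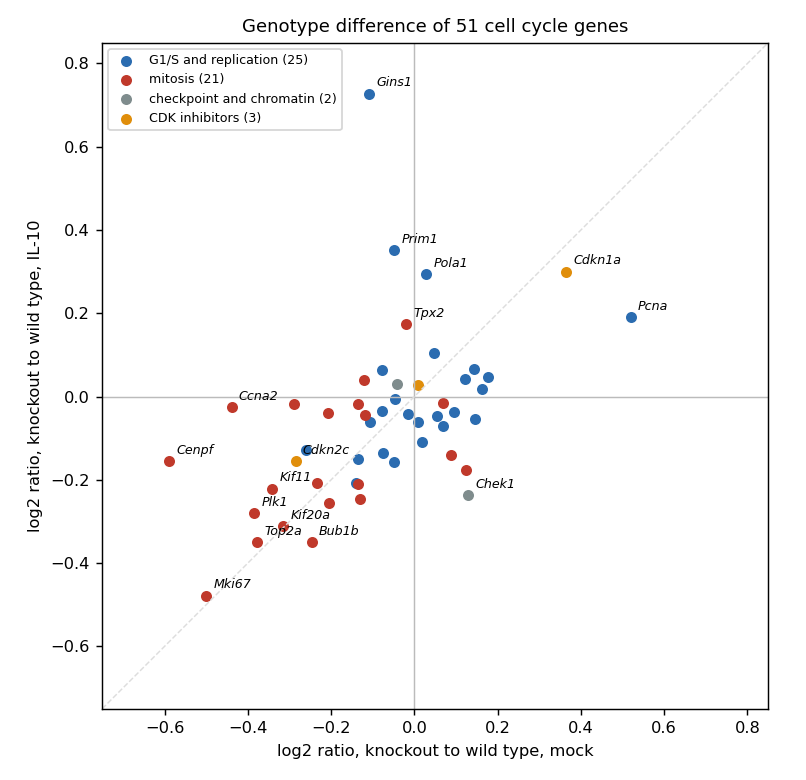
Log2 ratio of knockout to wild-type signal with IL-10 against the same ratio under mock, 1 point per gene, coloured by role (51 compared genes; the dashed line marks equal ratios). Most mitotic genes lie at the lower left, Mki67 at -0.50 and -0.48, while Cdkn1a and Pcna lie at the upper right and Gins1 stands alone at the top.

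All 4 genes of deoxynucleotide supply stood lower in knockout cells, among 9 of the 25 G1/S and replication genes that did so both under mock and with IL-10. Of all compared genes 34.5% did so, and the count of 9 lay near that share. Rrm2, the regulated subunit of ribonucleotide reductase, stood at 234 and 191 units under mock and 219 and 198 with IL-10. Tk1, thymidine kinase, stood at 265 and 238 units and then 276 and 235.5. Tyms, which makes thymidylate, stood at 412 and 390 units and then 391.5 and 354, and Rrm1, the large reductase subunit, at 1230.5 and 1189 and then 1358 and 1215. In all 4 genes both knockout columns lay below both wild-type columns, with log2 ratios from -0.26 to -0.05 under mock. The others were Cdc6, Cdt1, Mcm2, Mcm7 and Pold1, a polymerase delta subunit with ratios of -0.11 and -0.06. Mcm7 also had both knockout columns below both wild-type columns, with ratios of -0.13 and -0.15. Of the 6 Mcm subunits it had the lowest mock ratio, and Mcm6 the highest (0.14).

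Pcna and Cdkn1a stood higher in knockout cells. Pcna (mm9 chr2:132074898-132075906, minus strand, 24.3% of the GENCODE gene) stood at 5596.5 units in wild-type cells and 8033.5 in knockout cells under mock and at 6681 and 7626 with IL-10, with log2 ratios of 0.52 and 0.19. Mouse has Pcna pseudogenes, and reads shared with such copies make this value uncertain. Cdkn1a, the CDK inhibitor induced by p53 (mm9 chr17:29235152-29236514, plus strand, 14.0% of the GENCODE gene), stood at 3125 and 4032.5 units under mock and 3680.5 and 4538 with IL-10, with ratios of 0.37 and 0.30. With the length trend subtracted the mock ratios were 0.36 for Pcna and 0.26 for Cdkn1a. Cdkn1b, the inhibitor of quiescent cells, stood at 1014.5 and 1020.5 units under mock and 925.5 and 944.5 with IL-10, so no genotype difference was visible. Cdkn2c, an inhibitor of Cdk4 and Cdk6, went the other way, at 149 and 117.5 units and then 121 and 106. Cdkn3, a phosphatase that acts on Cdk1 and Cdk2, stood at 26 and 28 units and then 24.5 and 27.5. Of the G1/S genes Cdk4 stood at 3665.5 and 3989 units under mock and 3925.5 and 4040 with IL-10. Ccne1, a cyclin E gene, stood at 95.5 and 89 units and then 106 and 112, and Cdk2 and E2f1 had mock ratios of 0.07 and 0.10.

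IL-10 for 4 h left the cell cycle genes without a common direction in either genotype. In wild type 29 of 51 genes were lower with IL-10 (56.9%, against 49.5% of all genes) and 21 were higher (against 49.6%), with a median log2 ratio of -0.04. In the knockout 28 of 51 were lower (54.9%, against 53.8% of all genes) and 22 were higher (against 45.2%), with a median of -0.03. No gene reached 2-fold or 1.5-fold in either genotype, in either direction. The background at 2-fold was 0.465% higher and 0.0175% lower in wild-type cells, and 0.877% and 0.0175% in knockout cells. At 1.5-fold it was 1.54% and 0.412% in wild-type cells and 2.32% and 0.807% in knockout cells. Both IL-10 columns lay below both mock columns for 11 of 52 genes and above them for 7, orders held by 19.7% and 15.4% of all compared genes. The mitotic genes had medians of -0.07 in wild-type cells and 0.01 in knockout cells. The IL-10 ratios also fell with transcript length over all genes, with rho of -0.37 in wild-type cells and -0.13 in knockout cells. With the length trend subtracted the mitotic medians were -0.01 and 0.02.

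Few genes lay outside the 5th to 95th percentile of all genes, and Gins1, with opposite signs, was the single one to do so in both genotypes. In wild-type cells Kif23 and Gins1 lay below it (3.92% of the 51, against 5% of all genes) and Ccne2 above (1.96%). In knockout cells none lay below and Tpx2 and Gins1 lay above (3.92%). Tpx2, which activates Aurora A at the spindle, stood at 554.5 units under mock treatment and 676 with IL-10 in wild-type cells and at 546.5 and 766.5 in knockout cells, with log2 ratios of 0.27 and 0.47. Mcm4, a subunit of the helicase, stood at 815 and 943.5 units in wild-type cells and 843 and 1016 in knockout cells. The cyclin E gene Ccne2 stood at 36.5 and 56 units and at 44 and 57, and Ccne1 at 95.5 and 106 and at 89 and 112. In these 4 genes both IL-10 columns lay above both mock columns. Cdkn1a also stood higher with IL-10, with ratios of 0.23 and 0.17. Cdt1, which loads the Mcm helicase at origins, stood lower, at 1752 and 1508 units in wild-type cells and 1694.5 and 1503 in knockout cells. Its partner Cdc6 stood at 69.5 and 56 units and at 64.5 and 54. E2f1, which drives S phase genes, stood at 483 and 453 units and at 518 and 440.5, and Kif23 had ratios of -0.41 and -0.13. Mki67 and Top2a had a ratio of -0.10 in wild-type cells and -0.07 in knockout cells. Ccnb1 and Cdk1 lay between -0.10 and 0.08 in both genotypes.

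**Figure D5:**
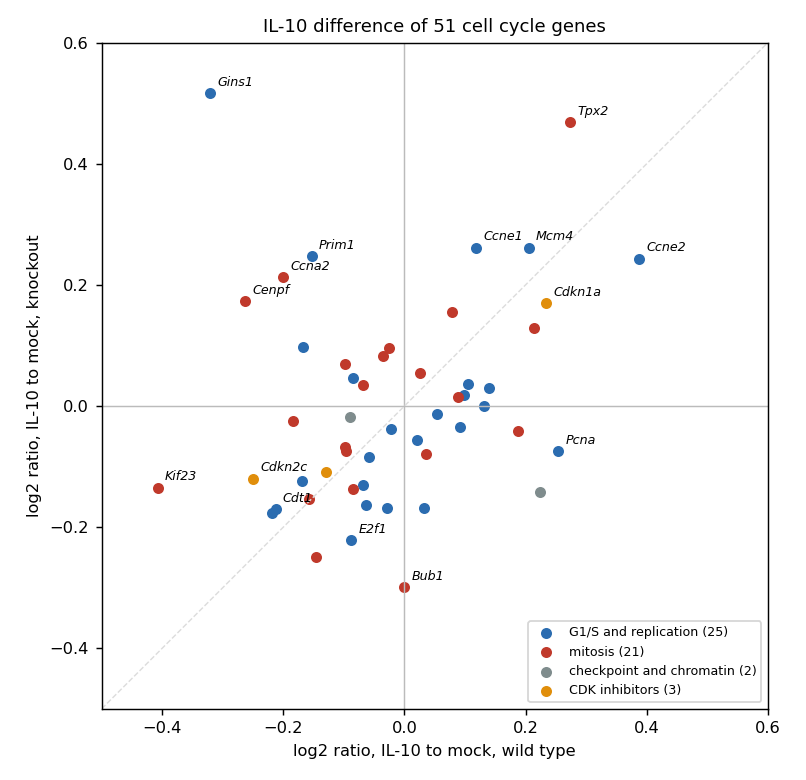
Log2 ratio of IL-10 to mock signal in knockout cells against the same ratio in wild-type cells, 1 point per gene, coloured by role (51 compared genes; the dashed line marks equal ratios). Points scatter around 0 in both directions; Tpx2 lies highest among genes above 0 in both genotypes, and Gins1 lies at the upper left, at -0.32 in wild-type cells and 0.52 in knockout cells.

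The difference between the genotypes' IL-10 ratios asks whether the response differed, and 26 of 51 genes were above 0 (51%) against 48.7% of all genes. No gene passed 2-fold upward, where 0.0965% of all genes lay, or downward, where 0.0351% lay. Gins1 (mm9 chr2:150735330-150757016, plus strand) was the single gene past 1.5-fold upward, where 0.5% of all genes lay, and none passed it downward, where 0.263% lay. It stood at 807 units under mock treatment and 641 with IL-10 in wild-type cells, and at 746 and 1079 in knockout cells, a difference of 0.84. Gins2, another subunit of the same complex, stood at 725 and 742 units in wild-type cells and 805 and 713.5 in knockout cells, a difference of -0.20. The primase gene Prim1 differed by 0.40 and Pola1, the catalytic subunit of polymerase alpha, by 0.26. Prim1 stood at 142 and 125 units in wild-type cells and 136.5 and 167 in knockout cells, and Pola1 at 219.5 and 192.5 and at 224.5 and 242. Cenpf differed by 0.44 and Ccna2 by 0.41, with parts from both genotypes. The IL-10 ratios of Cenpf were -0.26 in wild-type cells and 0.17 in knockout cells, and those of Ccna2 -0.20 and 0.21. Downward, Chek1 differed by -0.37 at a low signal of 26.5 to 36 units, Pcna by -0.33 and Bub1 by -0.30.

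Other genes of the pathway, 156 in further lists besides the 52, were read the same way, and 150 passed the filter on low values. These lists too were chosen with earlier results of these data known, so they are not an independent check. Of 58 other mitotic genes 37 were below 0 in knockout cells under mock (63.8%, against 45.8% of all genes) and 34 with IL-10 (58.6%, against 47.4%), with medians of -0.04 and -0.06, closer to 0 than for the 21 mitotic genes. The lowest were Cit, a kinase of cytokinesis, at 102 and 59 units under mock (-0.59), and with IL-10 Iqgap3 (-0.44). Pttg1, the securin gene, went the other way, at 432.5 and 580 units under mock and 449.5 and 592 with IL-10, as did the checkpoint gene Bub3 under mock (0.39) and the kinetochore gene Cenpm (0.35 and 0.63, at 35 to 69 units). Foxm1, which switches on mitotic genes, stood at 345.5 and 255 units under mock and 340.5 and 270.5 with IL-10, with ratios of -0.40 and -0.31. Mybl2, which encodes B-Myb, had ratios of -0.11 and -0.08. The other 5 of these 7 regulators were the MuvB subunit genes Lin9, Lin37, Lin52, Lin54 and Rbbp4. They were above 0 in both comparisons, as were 4624 of all 11400 compared genes. With IL-10 Rbbp4 (0.0009) and Lin54 (0.02) lay almost at 0. The list of 7 had medians of 0.13 and 0.02. Lin37 was highest under mock, at 0.33. Of 40 other replication genes 14 were below 0 under mock (35%, against 45.8% of all genes) and 17 with IL-10 (42.5%, against 47.4%). Under mock Gins4 was highest of them at 0.45 and Uhrf1 lowest at -0.45.

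Among the regulators of G1, cyclin D1 stood lower in knockout cells, and with IL-10 the CDK inhibitor gene Cdkn2d stood higher and Cdkn1c lower. Ccnd1 was listed at 648 and 437.5 units under mock and 524 and 401 with IL-10 (log2 ratios -0.54 and -0.36), while Ccnd2 had ratios of -0.30 and -0.08 and Ccnd3 0.19 and 0.21. Cdkn2d, an inhibitor of Cdk4 and Cdk6, stood at 190 units under mock treatment and 356.5 with IL-10 in wild-type cells and at 222 and 545 in knockout cells. Its IL-10 ratios were 0.82 and 1.20, so it was the single gene of the 150 past 2-fold, in knockout cells, where 0.877% of all genes were. Cdkn1c, at much higher signal, stood at 5119.5 and 4420 units in wild-type cells and 6632.5 and 5542.5 in knockout cells. Its IL-10 ratios were -0.21 and -0.26, and its knockout to wild-type ratios 0.37 under mock and 0.32 with IL-10. Rb1, the retinoblastoma gene, stood at 1819 and 1470.5 units in wild-type cells and 1802.5 and 1393 in knockout cells, and Myc at 596 and 500 and at 612.5 and 466.5. Of the 14 p53 targets 11 were above 0 in knockout cells under mock (78.6%, against 53.5% of all genes), with a median of 0.07. With the length trend subtracted 6 were below 0 under mock and the median was 0.00. With IL-10 the median was 0.14, with 10 of 14 above 0 (71.4%, against 51.8% of all genes). It was 0.09 after the subtraction, again with 10 above 0. Sesn1, a p53 target, had the lowest IL-10 ratio in knockout cells (-0.68, against -0.14 in wild-type cells). Maf, a macrophage transcription factor, had IL-10 ratios of -0.25 in wild-type cells and -0.03 in knockout cells. Csf1r, the receptor of the growth factor CSF-1, had IL-10 ratios of -0.19 and -0.10.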

How the data were processed

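Total RNA was extracted with TRIzol and sequenced after an Illumina library protocol, per the labels' protocols. The submitters' processing notes list RSEM and Bowtie as tools and mm9 as the build, giving neither version nor role. The authors deposited a normalized signal with 1 value per group, in columns that each sum to 26705598 and so are not CPM. Strandedness, normalization and the depth of single samples are not stated in these sources. No test was possible with 1 value per group, so the limma fits planned for values per sample were not run. Log2 ratios used a pseudocount and a filter of 1 ppm of the column total (26.7 units), with limits of 2-fold, 1.5-fold and the sign. Transcript lengths were GENCODE M21's longest coding transcript (98.4% of compared genes), and the running median spanned 501 genes. The script was tested on simulated data. Python 3.11.15 and pandas 2.3.3 were used. Named genes were fixed controls such as Mki67 and Pcna, the 6 largest ratios in each direction, the highest and lowest genes of each role, any gene past 1.5-fold, and, of other pathway genes, the 3 largest ratios each way, any past 2-fold and a set given by name such as Foxm1 and Ccnd1. Others named for comparison were chosen after their values were seen. Alternatives changed the pseudocount, the filter, the centring and the length trend. The members, role groups and lists were chosen with earlier results of these data known. Of the 52 rows, 14 cover under 50% of the length of their GENCODE gene, as do 24.6% of all rows. Some genes covered by the naming rule are not reported here.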

Additional observations from a re-analysis of the deposited data

Results flagged for a closer look

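Gins1 was picked out because its signal moved in opposite directions with IL-10 in the 2 genotypes, down in wild type (log2 ratio -0.32) and up in the knockout (0.52), a difference of 0.84. Each side is 1 group value, and the difference was not tested.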

How the results depend on the processing

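No paired analysis was possible because the table holds 1 value per group, and for the same reason no sample could be left out in turn. Cenpf was the 1 gene at least 1.5-fold lower in the mock-treated knockout. That count became 0 with a pseudocount of 4 ppm, with the filter at 5 ppm, with the length trend subtracted and with rows that cover at least 50% of the GENCODE gene, an alternative chosen after seeing the data. The filter at 5 ppm left 15 of the 21 mitotic genes, of which 6 were lower with IL-10 in the knockout (10 of 21 before) and 4 had a lower response in the knockout (7 of 21 before). With rows of at least 50%, 12 of 14 mitotic genes were lower in the knockout with IL-10 (19 of 21 before). The medians of all 51 genes, of the mitotic genes and of the G1/S and replication genes moved by at most 0.08 on the log2 scale under the 7 alternatives. Depth is unknown, so its limit on low genes such as Chek1 and Cdkn3 cannot be given.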
